A study of Mus musculus with 18 samples.

Results

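Vesicle trafficking genes are those whose symbol starts with Rab, Arf, Sec or Vps and a digit, with Cop and a, b, e, g or z, with Ap1, Ap2 or Ap3 and a subunit letter, or with Clt. By this rule 172 of 21013 RefSeq protein-coding genes of the mouse genome build mm10 are members, and a site belongs to a member when it lies in an exon on the same strand. Together the 9 libraries listed 25890 distinct 5-methylcytosine (m5C) sites, of which 18059 lay in exons of protein-coding genes. Of these, 421 sites (2.33%) lay in 49 of the 172 members, and 123 members had none. No site was shared by more than 1 gene. A site was found in 28.5% of members and in 13.0% of all protein-coding genes. mRNA abundance and length were not matched in setting these shares side by side.

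RNA bisulfite sequencing reads m5C as cytosines that resist conversion. Per the labels it was applied to primary cortical neurons cultured from C57BL/6 mouse embryos of day 18. The control neurons were untreated, and the other groups went through 1.5 h or 3 h of oxygen-glucose deprivation and then 24 h of reoxygenation (OGD/R 1.5 h and OGD/R 3 h), a culture model of stroke. Each group has 3 bisulfite libraries. The deposited values are a score for each called site, which combines coverage and methylation level without giving either, and the depth of the libraries is unknown. A site that is not listed may be unmethylated or too thinly covered to be called.

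Several facts about the libraries bear on all values that follow. A control library listed 5907 to 6254 sites, an OGD/R 1.5 h library 5423 to 5745 and an OGD/R 3 h library 7266 to 7772. Coverage listed with the paper for single sites differed between replicates by less than the sampling noise in control and in the longer OGD/R group, and no coverage was used for the shorter. Each group of 3 libraries was accordingly treated as 1 sample. No p-value is given, and a mean ± SD over 3 libraries describes the spread between sequencing libraries only. None of 15 marker genes of neurons, Map2, Tubb3 and Snap25 among them, had a site in any library. Of 22 marker genes of intestinal epithelium 21 had sites, at 110 to 125 sites in a control library, 76 to 82 in an OGD/R 1.5 h library and 234 to 252 in an OGD/R 3 h library. Erythroid markers (2 of 6 with a site) and neutrophil markers (3 of 7) held 0 sites in every control and OGD/R 1.5 h library and 31 and 21 in each OGD/R 3 h library. Smooth muscle markers (5 of 7) held 7 to 15 sites in a library and astrocyte markers (1 of 5) at most 1. The called sites thus go against the labelled cell type, and the libraries are named here by their labels. Numbers of sites are not levels of mRNA, and fewer cells of a type and less RNA per cell cannot be told apart. The part of cell composition in the results below was not tested.

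Proteins move between the compartments of a cell in small vesicles. A coat forms each vesicle: COPII for export from the endoplasmic reticulum, COPI for return from the Golgi, and clathrin with its adaptor complexes for traffic at the plasma membrane, the Golgi and endosomes. Arf GTPases recruit COPI and several adaptors, Rab GTPases give compartments their identity and direct vesicles to their target, and Vps proteins serve in tethering and sorting towards endosomes and lysosomes. In neurons these machines supply axons and synapses with membrane proteins and take up and recycle synaptic vesicles.

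The stretches below carry the results for single members, and were read on the mRNA strand of the mm10 sequence, 5′ to 3′. Capitals mark cytosines called in at least 1 library of the group named; the other cytosines of the stretch were not called in that group. Rab1b (chr19:5106933-5106962, minus strand, exon 1), Arf5 (chr6:28423670-28423699, plus strand, exon 1) and Sec22b (chr3:97901375-97901404, plus strand, exon 1) lie at or just after the start codon, and the stretches of Rab1b and Arf5 include it. Those of Arf6 (chr12:69372431-69372460, plus strand, exon 2) and Rab21 (chr10:115315407-115315436, minus strand, exon 1) lie in the 5′ UTR. The stretches of Ap2a2 (chr7:141620919-141620948, plus strand, exon 13), Sec31a (chr5:100389075-100389104, minus strand, exon 13) and Sec24a (chr11:51733851-51733880, minus strand, exon 5) lie in coding sequence.
Rab1b, OGD/R 3 h: acCgagCgggCCacCgctgCcgccatgaac
Arf5, OGD/R 3 h: ccCcgccCcgggccCcgccatgggcctcac
Arf6, OGD/R 3 h: CCggcaggCCggCcgcagttggagccggCg
Sec22b, OGD/R 3 h: ggCggacggcCttccgCtggccgcctcgat
Rab21, control: agCCgggCCCgggaggagcgggcgccccgg
Ap2a2, OGD/R 3 h: gaCgtgCtgcgCagtgaCagCCagCtgaag
Sec31a, OGD/R 3 h: tgCtttggCcttgaaCaaagtggaCggacC
Sec24a, OGD/R 1.5 h: ggCtCtgcatacCCctCcCtgCCacCaggC

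In Rab1b, 6 of the 13 cytosines were called, each in all 3 OGD/R 3 h libraries, and the remaining 7 in none. In the Ap2a2 stretch 7 of 8 cytosines were called in at least 1 library, but no cytosine in all 3. Of the called cytosines, 5 of 6 in Arf6, 3 of 3 in Sec22b, 2 of 3 in Arf5 and 2 of 5 in Rab21 were called in all 3 libraries of the group. In Sec31a this was 1 of 5 and in Sec24a 1 of 10, so the calls in these coding stretches changed from library to library. Single sites are shown next with 10 bases on either side. The Sec23a site (chr12:59011853-59011873, minus strand, exon 1, before the start codon) was called in all 9 libraries. The Ap3d1 sites at 80712848 and 80712798 (chr10:80712838-80712858 and chr10:80712788-80712808, minus strand, exon 21, coding sequence) each had scores that separated 1 OGD/R group from control. At 80712848 this was OGD/R 1.5 h and at 80712798 OGD/R 3 h.
Sec23a: gaggctgtggCcgtcacggag
Ap3d1, position 80712848: ggagggtgtgCtcggggtaga
Ap3d1, position 80712798: agaagaagacCaaagagagag

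The trafficking mRNAs held more sites after OGD/R, and more after 3 h than after 1.5 h of deprivation. The control libraries listed 75, 78 and 81 member sites, the OGD/R 1.5 h libraries 102, 95 and 90, and the OGD/R 3 h libraries 131, 128 and 120. No library of a group reached the range of another group. The mean rose from 78.0 ± 3.0 in control to 95.7 ± 6.03 after 1.5 h and 126 ± 5.69 after 3 h (SD, 3 libraries), or by 1.23-fold and 1.62-fold over control. mRNA sites as a whole numbered 3944 ± 180, 3604 ± 128 and 4914 ± 308. As a share of the mRNA sites of a library, members took 1.93%, 1.88% and 2.13% in control, 2.91%, 2.67% and 2.40% after 1.5 h, and 2.49%, 2.70% and 2.53% after 3 h. Both OGD/R groups lay above control without overlap, while they overlapped each other. Among sites with a score of at least 10, mean member sites were 0.42 higher than control on the log2 scale after 3 h but not after 1.5 h (-0.12), and the share after 3 h did not exceed control (-0.01). The step from 1.5 h to 3 h was -0.01 among sites with no other site within 10 nt. Sites called in at least 2 libraries of a group numbered 64 in control, 64 after 1.5 h and 105 after 3 h. The rise after 1.5 h was thus absent among them.

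**Figure D1:**
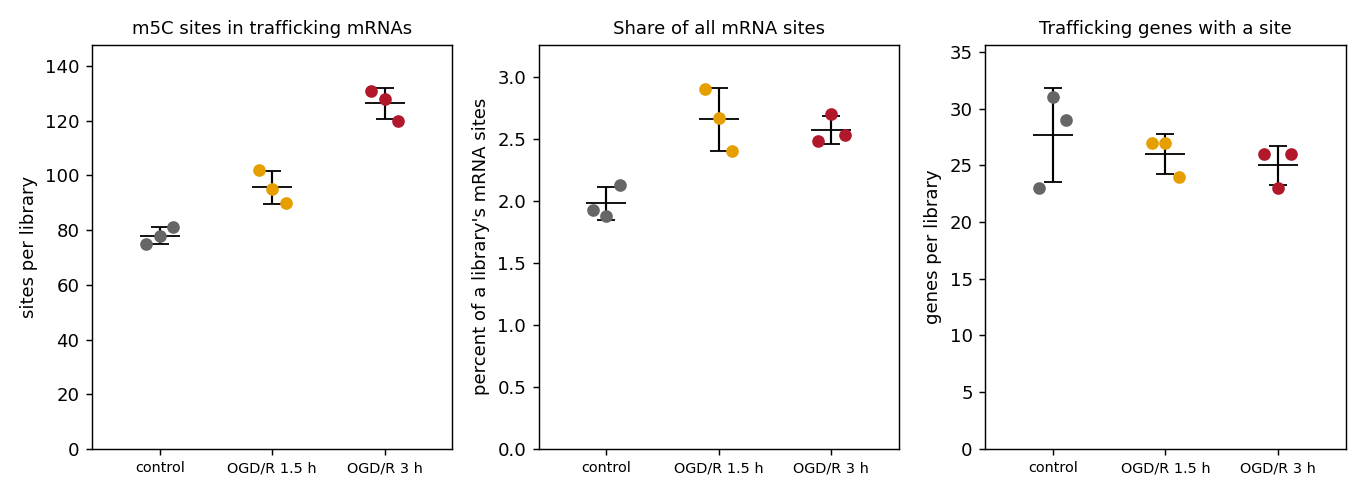
Sites in trafficking mRNAs (left), their percent of the mRNA sites of a library (middle) and trafficking genes with a site (right) by group; points are libraries, horizontal lines are means and error bars are SDs over 3 libraries. Sites step up from 75 to 81 in control to 120 to 131 in OGD/R 3 h, whereas the numbers of genes overlap between all groups.

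The number of members with a site did not grow with the number of sites. It was 23, 31 and 29 in the control libraries, 27, 27 and 24 after 1.5 h, and 26, 23 and 26 after 3 h, so that all groups overlapped. Sites per member with a site went from 2.86 ± 0.376 in control to 3.68 ± 0.142 and 5.07 ± 0.476, without overlap between groups. The same number in other genes was 2.91 ± 0.0525, 2.83 ± 0.0955 and 4.33 ± 0.156. Sec31a, the outer-coat subunit of COPII, and Ap2a2, an alpha subunit of the clathrin adaptor AP-2, held 33.5% of all member sites. Without them the rise in mean sites on the log2 scale came to 0.51 after 3 h (0.70 with them) and to 0.16 after 1.5 h (0.29 with them). Of all member sites, 199 (47.3%) were called in a single library, against 49.0% of the sites in other mRNAs.

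Families of members moved in different directions. The Rab GTPases were the only family with at least 10 sites whose OGD/R libraries lay below control without overlap: 13 of 59 had a site, and together they held 14, 18 and 15 sites in the control libraries, 6, 4 and 2 after 1.5 h, and 8, 9 and 8 after 3 h. OGD/R 3 h lay above OGD/R 1.5 h, again without overlap, but this rested on Rab1b. That gene held 6 sites in each OGD/R 3 h library and 1, 0 and 0 after 1.5 h. The Arf GTPases, with a site in 4 of 6, held 7, 4 and 7 sites in control, 11, 8 and 6 after 1.5 h, and 23, 28 and 26 after 3 h, where they left the range of both other groups. COPII coat genes, with a site in 3 of 12, went from 13, 15 and 18 sites to 42, 31 and 36 after 1.5 h and 39, 35 and 31 after 3 h. Both OGD/R groups lay above control and overlapped each other.

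Clathrin chains, all 3 with a site, held 1, 3 and 1 sites in control, 1, 1 and 3 after 1.5 h and 6, 5 and 7 after 3 h. COPI coat genes, with a site in 5 of 8, held 6, 9 and 7, then 13, 11 and 12, and then 13, 11 and 8, and only OGD/R 1.5 h left the range of control. Adaptor subunits, with a site in 7 of 21, held 22, 16 and 16 sites in control, 17, 24 and 20 after 1.5 h and 24, 27 and 23 after 3 h. The last of these lay just above control. Vps proteins, with a site in 6 of 34, held 4 to 10 sites in every library and overlapped between all groups. Rab effectors and regulators (3 of 10 with a site) rose from 1.67 ± 0.577 sites in control to 3 after 1.5 h in every library and 5 ± 1.0 after 3 h. Genes of the endoplasmic reticulum translocon and signal peptidase (3 of 8) held 0 to 4 sites in a library and overlapped between all groups.

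**Figure D2:**
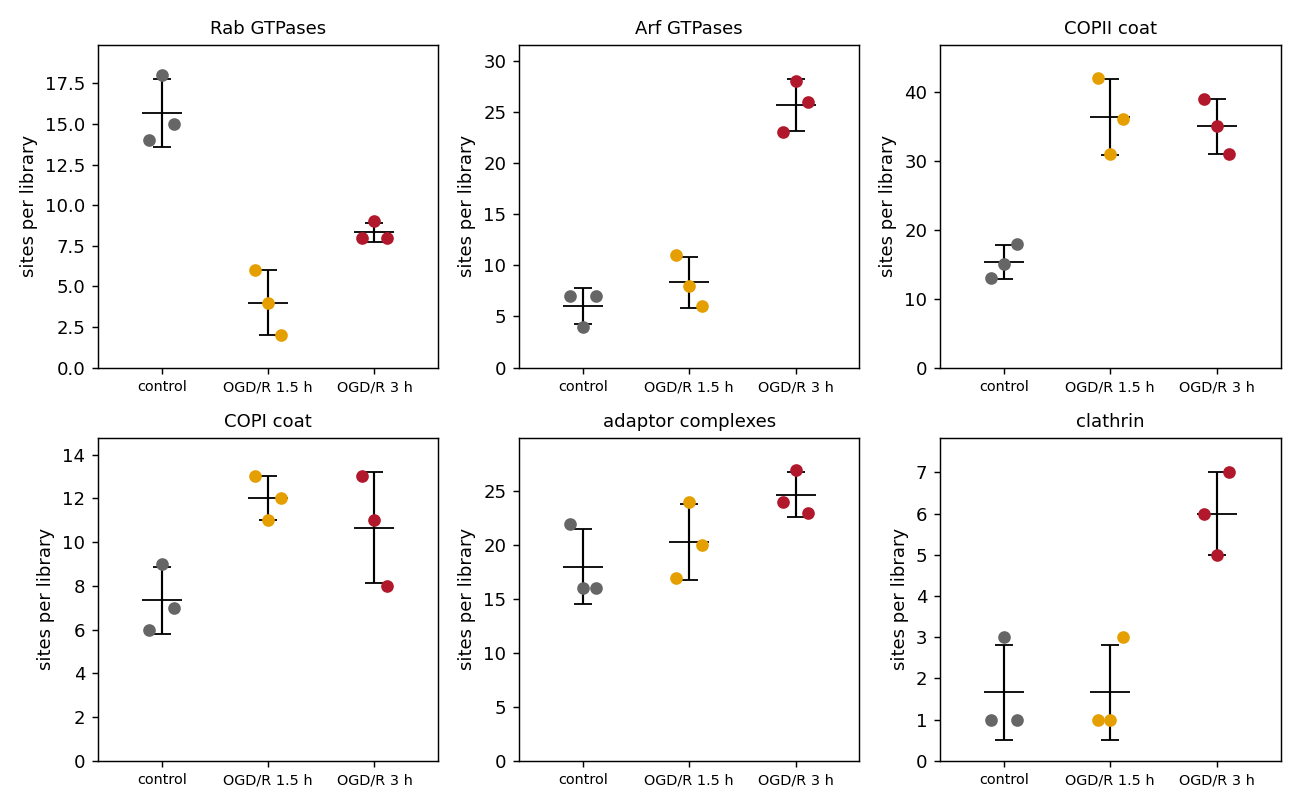
Sites per library in 6 families of trafficking genes; points are libraries, horizontal lines are means and error bars are SDs over 3 libraries, and each panel has its own axis from 0. Rab GTPases fall from 15.7 to 4.0 and 8.33 mean sites, Arf GTPases rise to 25.7 only after 3 h, and COPII genes rise to 36.3 already after 1.5 h.

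Gene by gene, a member was called different between 2 groups when no library of one reached the range of the other. Site numbers after 3 h exceeded control in 14 of the 48 members with a site in either group (29.2%; 18.6% of all genes tested were called in this direction). They fell below control in 9 (18.8%; 18.7% of all genes). The share that was higher thus lay above that of all genes, and the share that was lower lay at it. Counting only sites with no other site within 10 nt, 7 of 44 members were higher (12.9% of all genes) and 1 was lower (10.9% of all genes). Members with more sites were Sec31a, Sec24a, Ap2a2, Arf4, Arf5, Arf6, Rab1b, Rab11fip1, Clta, Cltc, Copb1, Sec22b, Sec61a1 and Vps4b. Members with fewer were Ap3d1, Ap3b1, Rab6a, Rab18, Rab19, Rab21, Rab43, Vps54 and Sec14l2, a lipid-binding protein whose symbol meets the rule although it is no coat or Rab protein.

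Over the 48 members the median difference in mean sites was 0.17 and over all 2267 genes it was -0.33. OGD/R 1.5 h had more sites than control in 7 of 44 members (15.9%; 8.55% of all genes): Sec24a, Sec31a, Sec23a, Copb1, Arf5, Rab11fip1 and Ap1s1. It had fewer in 4 (9.09%; 15.1% of all genes), which were Rab18, Rab19, Rab21 and Vps54. Without OGD/R 1.5 h replicate 2 it had fewer in 7, but fewer libraries make a call easier. The share of all genes called in that setting was not computed. The medians of the difference were 0 over the members and -0.17 over all 2328 genes. OGD/R 3 h exceeded OGD/R 1.5 h in 11 of 42 members (26.2%; 19.9% of all genes) and fell below it in 6 (14.3%; 13.4% of all genes). The comparisons with control share the control libraries. Taking sites as a share of the mRNA sites of the library gave 13 members higher after 1.5 h (16.7% of all genes) and 4 lower (15.1%). After 3 h it gave 13 of 48 higher (17.4% of all genes) and 11 lower (24.3%).

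**Figure D3:**
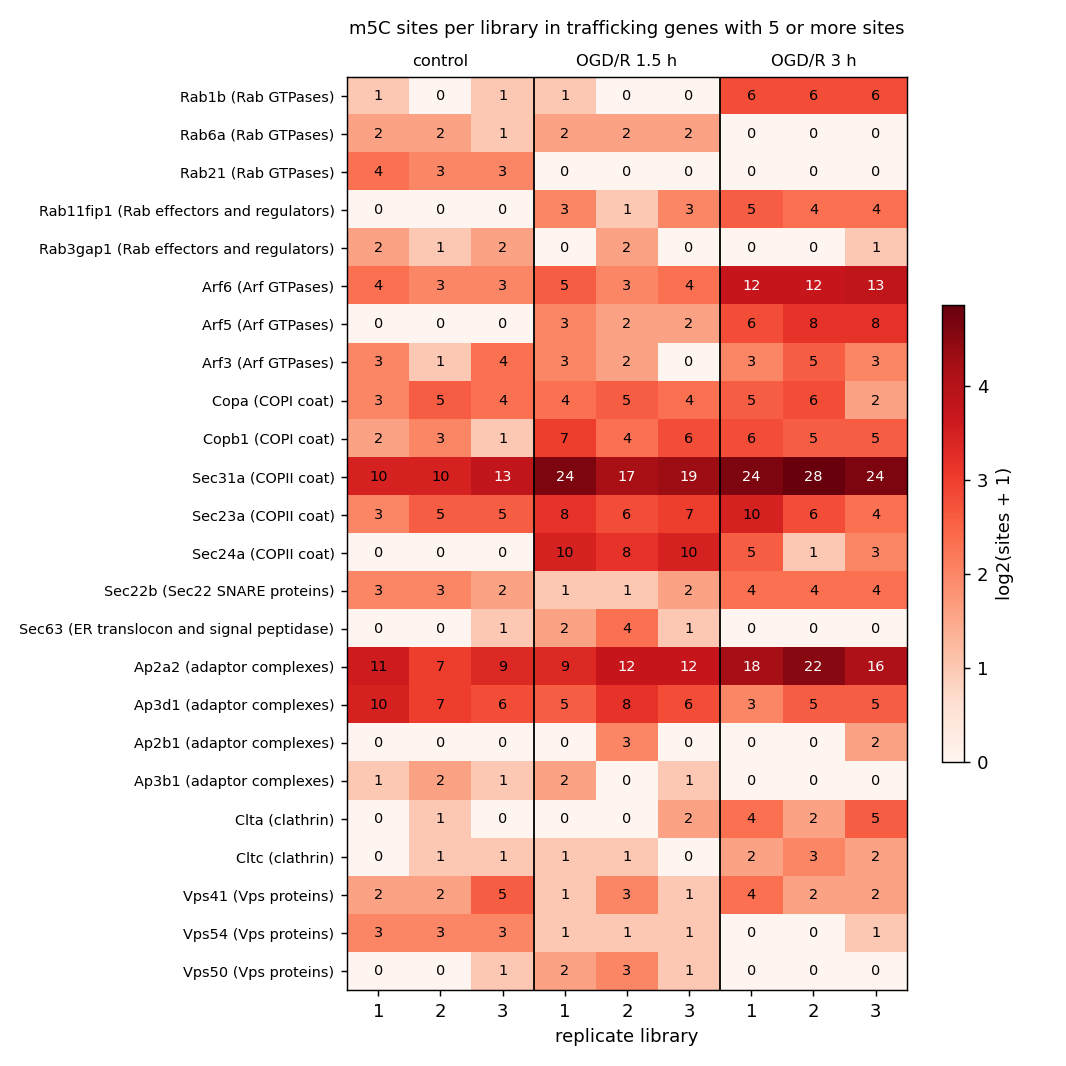
Sites in each library for the trafficking genes with 5 or more sites over the 9 libraries, ordered by family; the number in each cell is the count of sites and the shade is log2 of the count plus 1. Rab21 is marked in control libraries alone, Sec24a and Arf5 in OGD/R libraries alone, and Rab1b holds 6 sites in each OGD/R 3 h library.

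COPII genes held the most sites. Sec31a on chromosome 5 held 84 distinct sites, the most of any member, with 10, 10 and 13 in the control libraries, 24, 17 and 19 after 1.5 h, and 24, 28 and 24 after 3 h. Both OGD/R groups lay above control and overlapped each other. Its sites spread over 3472 nt of the mRNA, with 74 in the CDS away from the codons and 10 around the start codon. In exon 20 (chr5:100378828-100379001) there were 12 sites, but 6 came from OGD/R 1.5 h replicate 1 alone and 6 from OGD/R 3 h replicate 2 alone. Exon 14 (chr5:100388534-100388611), in contrast, held 3 to 8 of its 12 sites in every library.

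Sec24a, the COPII subunit that binds cargo, lacked sites in all control libraries. It had 10, 8 and 10 sites after 1.5 h and 5, 1 and 3 after 3 h, so that it stood highest after the shorter deprivation, without overlap with either other group. The run shown above held 10 called cytosines of 15 in OGD/R 1.5 h, of which 1 was called in all 3 libraries. Sec23a, which activates the GTPase of the COPII coat, held 3, 5 and 5 sites in control, 8, 6 and 7 after 1.5 h and 10, 6 and 4 after 3 h. Only OGD/R 1.5 h lay above control. The site of Sec23a called in all 9 libraries, 43 nt before the start codon, had low scores throughout: 2, 2 and 4 in control, 22, 3 and 2 after 1.5 h and 2, 2 and 31 after 3 h. Its neighbour 1 nt downstream was called in the 3 control libraries only, with scores of 8, 10 and 18.

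Among the Arf GTPases, Arf6, which acts at the plasma membrane and in endocytic recycling, held 4, 3 and 3 sites in control, 5, 3 and 4 after 1.5 h, and 12, 12 and 13 after 3 h. The 1.5 h libraries overlapped with control and the 3 h libraries lay far above both. Of its 24 sites 17 were in the 5′ UTR away from the start codon, and 10 were called in all 3 OGD/R 3 h libraries and in no other library. The site at chr12:69372459, the last capital of the Arf6 stretch above and called in all 9 libraries, had scores of 2, 101 and 1 in control, 35, 0 and 7 after 1.5 h, and 1, 34 and 18 after 3 h. These scores overlapped between all groups. The site at chr12:69372439, in the same stretch, was absent from the other groups and had scores of 23, 41 and 44 in OGD/R 3 h.

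Arf5, a Golgi Arf, had no site in control, 3, 2 and 2 sites after 1.5 h and 6, 8 and 8 after 3 h, in non-overlapping steps. Its 1.5 h and 3 h sites differed: 2 sites were called in all OGD/R 1.5 h libraries and in no library of another group, and 5 sites in all OGD/R 3 h libraries and in no other. Of its 12 sites 9 lay around the start codon and 3 in the 3′ UTR. Arf4, a related Golgi Arf, had 0 sites in control, 0, 1 and 0 after 1.5 h and 2, 3 and 2 after 3 h. Arf3 held 0 to 5 sites in a library and overlapped between all groups.

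The fall of the Rab family rested on several genes with few sites each. Rab21, a GTPase of early endosomes and integrin traffic, held 4, 3 and 3 sites in control and none in any OGD/R library. Its 5 sites fell within 8 nt of the 5′ UTR, 81 to 88 nt before the start codon, where all 5 cytosines of the span were called in at least 1 control library. Rab18, a GTPase of lipid droplets and the endoplasmic reticulum, held 3, 2 and 3 sites in control and none after OGD/R, all around the start codon. Rab19 held 2, 2 and 1 sites in control and none after OGD/R. Rab6a, which directs traffic at the Golgi, held 2, 2 and 1 sites in control and 2 in each OGD/R 1.5 h library, but none after 3 h.

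Rab1b, which directs vesicles from the endoplasmic reticulum to the Golgi, went against its family. It held 1, 0 and 1 sites in control, 1, 0 and 0 after 1.5 h, and 6 in each OGD/R 3 h library. The 6 sites lay 5 to 22 nt before the start codon and were the same cytosines in each of these libraries. The highest scores among them, 48, 18 and 101, were at chr19:5106956. Its close relative Rab1a held 0, 2 and 1 sites in control, none after 1.5 h and 1 in each OGD/R 3 h library. No other Rab GTPase exceeded control after 3 h without overlap.

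**Figure D4:**
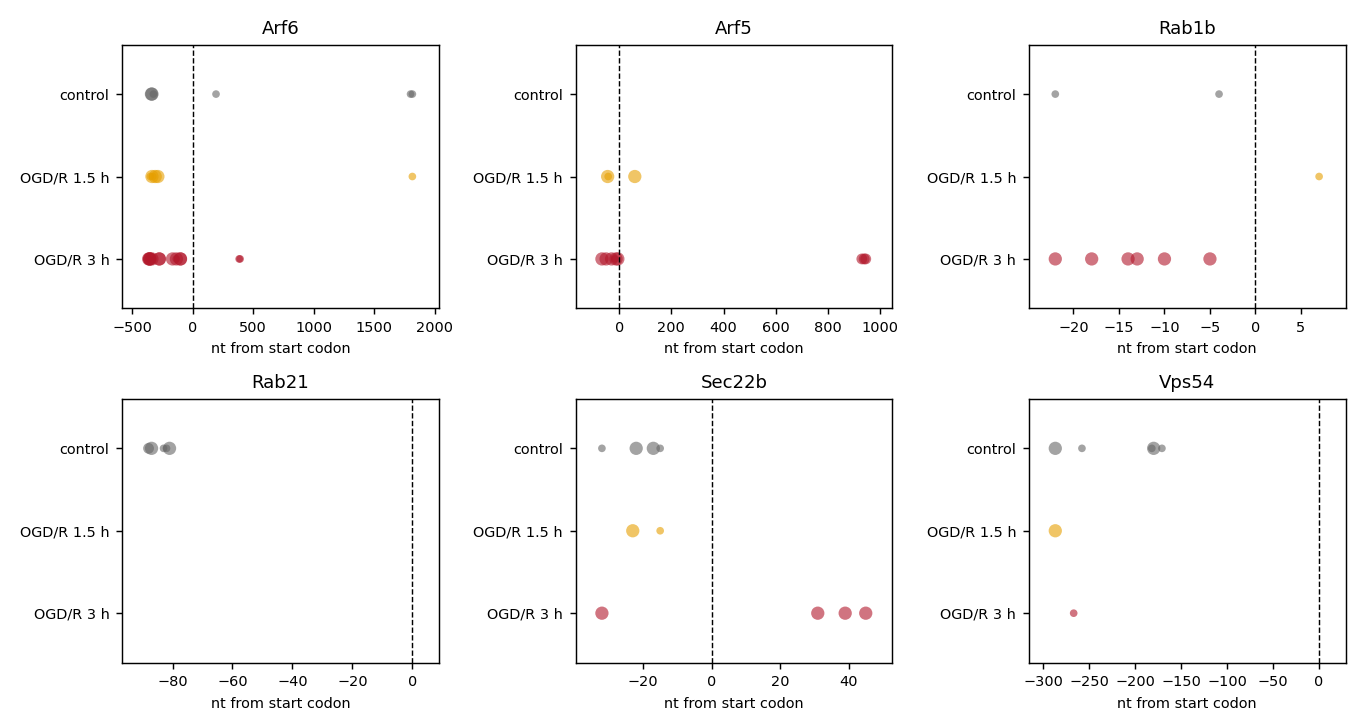
Called sites of 6 trafficking genes by distance from the start codon in nt (dashed line at 0); rows are groups and the area of a dot gives the number of libraries of the group, 1 to 3, that called the site. Arf6 and Arf5 gain sites before the start codon after 3 h, the 6 Rab1b sites of OGD/R 3 h lie 5 to 22 nt before it, Rab21 has control sites only, and Sec22b changes position.

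Adaptor genes split as well. Ap2a2 held 11, 7 and 9 sites in control, 9, 12 and 12 after 1.5 h, and 18, 22 and 16 after 3 h, and only the last lay apart from control. Its sites called in all 3 libraries of a group did not rise, at 3 in control, 3 after 1.5 h and 1 after 3 h. Exon 13 (chr7:141620792-141621023) held 20 of its 57 sites, with 4, 2 and 1 in control, 2, 2 and 4 after 1.5 h, and 9, 10 and 9 after 3 h. In OGD/R 3 h, 15 of 16 cytosines within 57 nt of this exon were called in at least 1 library. Ap3d1, the delta subunit of AP-3, which sorts cargo to lysosomes and to a class of synaptic vesicles, held 10, 7 and 6 sites in control, 5, 8 and 6 after 1.5 h and 3, 5 and 5 after 3 h. The 3 h libraries lay below control by a single site at the nearest.

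Scores at each of the Ap3d1 sites shown above separated 1 OGD/R group from control. At position 80712798 they were 56, 46 and 66 in control and 3, 2 and 2 in OGD/R 3 h, a difference of -4.09 in the mean of log2(score + 1). This was 1 lower site among the 3 member sites called in all 6 libraries of these groups (15.6% of 250 mRNA sites were lower and 10.8% higher). The site was called in no OGD/R 1.5 h library. At position 80712848 scores were 104, 162 and 152 in control and 14, 36 and 69 after 1.5 h, a difference of -2.02. It was the 1 site called of 5 member sites in all 6 libraries of that comparison (13.6% of 294 mRNA sites were lower and 9.18% higher). OGD/R 3 h and OGD/R 1.5 h shared 2 member sites in all 6 libraries, and scores overlapped at both (12.8% of 203 mRNA sites were higher and 15.3% lower).

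COPI, SNARE and Vps genes gave smaller numbers. Copb1, the beta subunit of COPI, held 2, 3 and 1 sites in control, 7, 4 and 6 after 1.5 h and 6, 5 and 5 after 3 h, all within 135 nt of the mRNA. Both OGD/R groups lay above control. Copa, the alpha subunit, held 2 to 6 sites in every library and overlapped between groups, but had the highest score of any member, 816, in control replicate 1 at chr1:172117257, where the other control libraries scored 322 and 499. This site was called in 1 library of each OGD/R group, with 180 after 1.5 h and 74 after 3 h.

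Sec22b, a SNARE protein that fuses vesicles from the endoplasmic reticulum, held 3, 3 and 2 sites in control, 1, 1 and 2 after 1.5 h, and 4 in each OGD/R 3 h library. Its sites differed between the groups: 2 were called in all control libraries and in no other, 1 in all OGD/R 1.5 h libraries and in no other, and 3 in all OGD/R 3 h libraries and in no other. The latter 3 lay 31, 39 and 45 nt into the coding sequence, while all control sites lay before it. Vps54, a subunit of the tethering complex that returns vesicles from endosomes to the Golgi, held 3 sites in each control library, 1 in each OGD/R 1.5 h library and 0, 0 and 1 after 3 h, all in the 5′ UTR.

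Member sites lay mostly in coding sequence. Regions were the 5′ UTR, the start codon and the stop codon with 100 nt on either side, and the CDS and 3′ UTR away from them. Over all libraries the CDS held 288 of 421 sites (68.4%; 55.7% in other mRNAs), and the start codon region 81 (19.2%; 24.0%). Of the CDS sites 74 lay in Sec31a, which had 84 sites in all, and 56 in Ap2a2, which had 57. Region shares and densities without these genes were not computed, so no excess in the CDS is shown for the other members. Counted per 1000 cytosines of the mRNAs with a site, the start codon region was the most densely marked at 29.8 sites, as in other mRNAs at 29.9. The CDS held 14.2 (7.88 in other mRNAs), the 5′ UTR 16.0 (11.3), the stop codon region 3.10 (8.12) and the 3′ UTR 0.691 (1.62). Families differed in this respect, since the start codon region held 61.7% of the Rab GTPase sites and the CDS 96.6% of the adaptor sites. In the Arf GTPases 42.9% of sites were in the 5′ UTR.

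After OGD/R the regional shares shifted. The CDS share was 60.0%, 65.4% and 61.7% in control, 75.5%, 75.8% and 71.1% after 1.5 h, and 66.4%, 63.3% and 60.8% after 3 h. Only OGD/R 1.5 h left the range of control. In other mRNAs it was 50.6 ± 2.46%, 57.4 ± 2.16% and 46.6 ± 2.80%. In other mRNAs the start codon share was 27.8 ± 1.95% in control, 23.3 ± 1.75% after 1.5 h and 31.02 ± 2.33% after 3 h. Only OGD/R 1.5 h left the range of control there. In members the start codon share was 26.7%, 25.6% and 24.7% in control, 13.7%, 13.7% and 17.8% after 1.5 h, and 21.4%, 22.7% and 24.2% after 3 h. OGD/R 1.5 h lay clearly below control, whereas OGD/R 3 h lay just below it, and above it when the region was cut to 50 nt on either side (control, 17.5 ± 0.370%; OGD/R 3 h, 19.8 ± 0.909%; SD, 3 libraries). Among sites with no other site within 10 nt the differences from control turned, to 4.97 percentage points for the start codon share after 1.5 h, 14.5 for it after 3 h, and -6.38 for the CDS share after 1.5 h.

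The 5′ UTR share rose from 6.86 ± 0.993% in control to 11.7 ± 1.71% after 3 h, and Arf6 alone supplied 17 of the 33 distinct sites of this region. In other mRNAs the share was 9.89 ± 0.772% in control and 8.55 ± 0.632% after 3 h, with overlap. No member site lay in the stop codon region in any OGD/R 3 h library, against 1.28% to 6.17% in control and 5.87 ± 0.224% of sites in other mRNAs after 3 h.

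**Figure D5:**
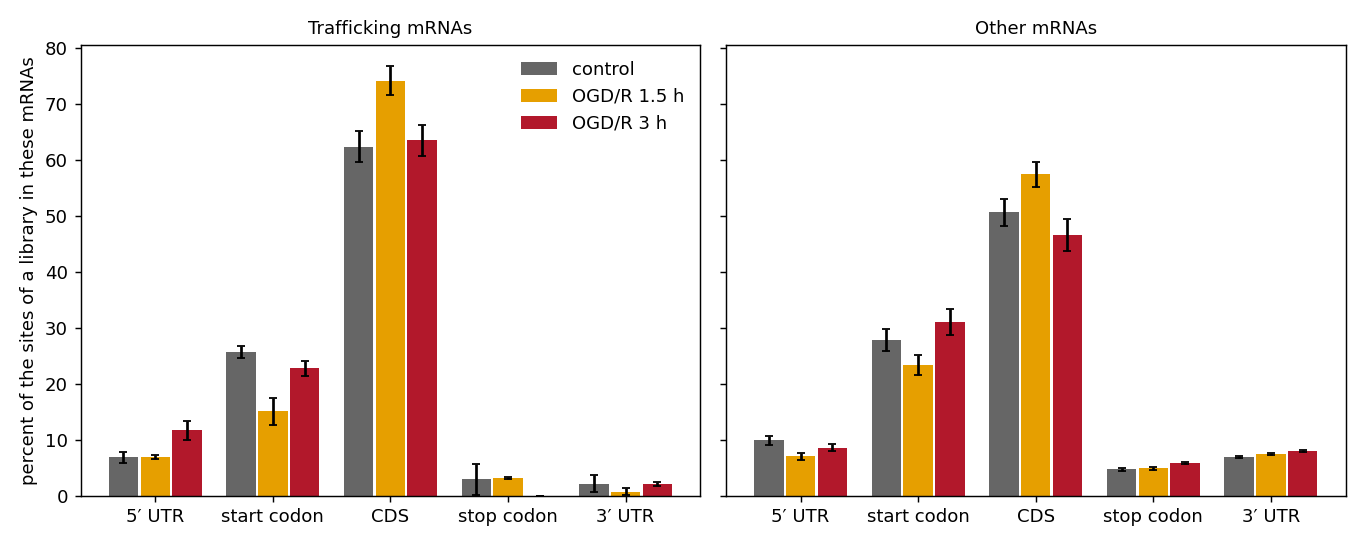
Percent of the sites of a library in each mRNA region, for trafficking mRNAs (left) and other mRNAs (right); bars are means and error bars SDs over 3 libraries. In trafficking mRNAs the CDS share is 74.1% after 1.5 h, above 62.4% in control and 63.5% after 3 h, and the stop codon share is 0% after 3 h.

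The sequence around member sites resembled that around other mRNA sites. Of the bases within 10 nt on either side, 36.0% were G (35.5% in other mRNAs), against 24.4% around all cytosines of the same member mRNAs. CG made up 24.5% of member sites, 2.33 times its share among cytosines of these mRNAs, and CHH, where H is any base but G, made up 40.1%, or 0.624 times. By library, CG held 34.7%, 28.2% and 29.6% in control, 24.5%, 27.4% and 26.7% after 1.5 h, and 26.7%, 23.4% and 25.0% after 3 h, and both OGD/R groups lay below control. Among sites with no other site within 10 nt the difference from control was 4.92 percentage points after 1.5 h and -0.281 after 3 h, and with a score of at least 10 it was -0.274 after 1.5 h. Over all sites, other mRNAs moved likewise, from 27.3 ± 0.463% to 21.9 ± 0.947% and 20.9 ± 0.773%.

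A cytosine followed by NGGG, the motif known for the methyltransferase NSUN2, was searched on the mRNA strand only, and was found at 15 member sites (3.56%; 1.95% of the cytosines of these mRNAs). A library held 4 to 6 such sites in control, 2 to 4 after 1.5 h and 2 to 5 after 3 h, and the numbers overlapped. As a share of the member sites of a library they were 6.88 ± 1.69% in control, 3.17 ± 1.13% after 1.5 h and 3.18 ± 1.41% after 3 h, both OGD/R groups below control without overlap. In other mRNAs the share went from 3.96 ± 0.270% to 3.52 ± 0.0593% and 3.33 ± 0.0492%. CTCCA, the motif known for NSUN6, with the methylated cytosine as its first base, was found at 1 member site. Scores of member sites were low: the median was 6.67 ± 2.52 in control, 4.0 ± 0.866 after 1.5 h and 5.0 ± 1.73 after 3 h, against 9.67 ± 0.577, 7.33 ± 0.577 and 12.7 ± 1.15 in other mRNAs. After 3 h the median of members thus stayed below that of other mRNAs in every library.

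Sites clustered along the mRNAs. Runs of at least 3 sites with gaps of at most 10 nt held 54 of 140 sites in control (38.6%), 71 of 190 after 1.5 h (37.4%) and 105 of 219 after 3 h (47.9%), counted over the joint sites of the 3 libraries of a group. The longest runs had 9 sites in control (Sec31a), 10 after 1.5 h (Sec24a) and 15 after 3 h (Ap2a2). Sites isolated by more than 10 nt from any other were 43.9 ± 4.56% of the member sites of a control library, 54.9 ± 4.63% after 1.5 h and 41.2 ± 3.95% after 3 h, against 53.5 ± 0.337%, 60.6 ± 0.654% and 49.2 ± 0.814% in other mRNAs.

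Groups shared few sites. OGD/R 3 h and control had 45 member sites in common, 20.5% of the 219 sites of OGD/R 3 h and 32.1% of the 140 of control. In other mRNAs these shares were 16.8% and 20.2%. OGD/R 1.5 h shared 56 sites with control, 29.5% of its 190 and 40.0% of those of control (27.9% without OGD/R 1.5 h replicate 2). For this pair the shares in other mRNAs were 26.2% and 26.9%. The OGD/R groups had 52 sites in common, 23.7% of those after 3 h and 27.4% of those after 1.5 h (18.1% and 21.2% in other mRNAs). In all groups 25 sites occurred (5.94%; 3.56% in other mRNAs). These shares were not higher throughout in members for sites called in all 3 libraries of a group. Of such control sites 10.0% were shared with 3 h (13.9% in other mRNAs) and 16.7% with 1.5 h (16.2%). Of such 1.5 h sites 6.06% were shared with 3 h (16.2%). Members themselves were shared more widely: 20 of the 31 marked after 3 h and of the 37 marked in control were the same genes. Pairs of libraries of a group shared 25.9% to 40.9% of their joint member sites and pairs across groups 6.74% to 15.0%. In other mRNAs the ranges were 29.7% to 45.5% and 6.44% to 10.7%, so low sharing was not particular to members.

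Other genes of vesicle traffic, such as SNARE proteins, sorting nexins and tethers, were listed apart from the symbol rule. Of 174 such genes 59 (33.9%) had a site. After 3 h, 12 of 50 exceeded control (24.0%; 18.6% of all genes), among them Arcn1, the COPI delta subunit, and the KDEL receptors Kdelr1 and Kdelr2, and 8 fell below it (16.0%; 18.7% of all genes), among them the SNARE proteins Vamp8 and Snap23. OGD/R 1.5 h had more in 6 of 54 (11.1%; 8.55% of all genes) and fewer in 7 (13.0%; 15.1%). OGD/R 3 h exceeded OGD/R 1.5 h in 10 of 50 (20.0%; 19.9% of all genes) and fell below it in 7 (14.0%; 13.4%). The shares of this list thus lay near those of all genes, with the widest gap for genes higher after 3 h (24.0% against 18.6%). Other settings were not computed for this list. Snap25 and Syt1, neuronal proteins of synaptic vesicle release, were in the list and had no site.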

How the data were processed

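RNA labelled as that of primary cortical neurons was depleted of rRNA, bisulfite-converted and sequenced in 9 libraries; 9 mock libraries were not analysed here. Per the study's methods, reads were trimmed with cutadapt 1.9.3 and aligned to mm10 with meRanGh, m5C sites were called in each library with meRanCall, and sites were held credible when their level reached 0.1 at a coverage of 10 reads or more. STAR aligned the untreated input libraries, and the submitters' processing notes also name CASAVA 1.8, without a role. How the mock libraries entered is not given in the sources used here. The values the authors deposited are a score per site, which matches 10 times the caller's score, cut to a whole number and capped at 1000. Depth is unknown.

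Sites were assigned with Python 3.11.15 to exons of RefSeq mRNAs on the same strand, and to regions on the transcript with the longest coding sequence. The genome was indexed with samtools 1.23.1, and matplotlib 3.10.9 drew the figures. Groups were taken from the labels. Gene counts were called different when the 3 libraries of each group did not overlap, over all genes with a site. Scores were compared as log2(score + 1). Alternatives were a score of at least 10, isolated sites, sites called in several libraries, codon regions of 50 nt, GENCODE exons and leaving out libraries. Members and lists were chosen with earlier results of these data known. Members named were those with most sites, the largest rises and falls, sites in all libraries, separated scores, and sites particular to a group.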

Additional observations from a re-analysis of the deposited data

Results flagged for a closer look

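With the start codon region cut to 50 nt on either side, the share of member sites in it moved in opposite directions after the shorter and the longer deprivation. It was 17.3%, 17.9% and 17.3% in the control libraries, 11.8%, 9.47% and 15.6% after OGD/R 1.5 h, all below control, and 19.1%, 19.5% and 20.8% after OGD/R 3 h (mean 19.8%), all above it. This difference between the OGD/R groups was not tested. With 100 nt on either side both OGD/R groups lay below control. In other mRNAs the mean share with 100 nt was likewise lower after 1.5 h and higher after 3 h. It was 27.8% in control, 23.3% after 1.5 h, without overlap, and 31.02% after 3 h, with overlap. Other mRNAs were not compared with 50 nt, so the pattern is not shown to be particular to members.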

How the results depend on the processing

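The comparisons were repeated under several other settings and 1 chosen after seeing the data, the counts of sites without Sec31a and Ap2a2. Of 234 repeats that left out a library, 227 moved a value by less than the spread or a count by less than 1.5 times. Of the 162 signed differences among them 150 kept their sign, and the other 12 turned or came to 0, all in comparisons whose groups overlapped, such as the CDS share after 3 h (-0.0476 without control replicate 1 and -0.314 without OGD/R 3 h replicate 1). Differences are OGD/R minus control, or OGD/R 3 h minus OGD/R 1.5 h; site and gene numbers and the members' share of mRNA sites are log2 ratios, and shares by region, context or motif are percentage points. Of 162 repeats under other settings only 80 stayed within these limits, or kept their sign for the mean of log2(score + 1). Over all 396 repeats 79 moved beyond the limits, and 10 turned in sign where the groups had not overlapped. The cause of the changes was not tested.

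With a score of at least 10, member sites differed by 0.42 (3 h), -0.12 (1.5 h) and 0.53 (3 h against 1.5 h), and their share of mRNA sites by -0.014 (3 h) and 0.15 (1.5 h). The start codon share differed by -16.2 (1.5 h) and 13.5 (3 h against 1.5 h) and the CDS share by -15.7 (3 h against 1.5 h). The CG share differed by -0.274 (1.5 h) and -5.57 (3 h against 1.5 h), CHH by 18.4 (3 h) and 15.0 (3 h against 1.5 h), NGGG by -8.05 (3 h) and -6.48 (1.5 h), and the median score by -8.5, 5.83 and -14.3 (3 h, 1.5 h, 3 h against 1.5 h). Of control sites 15.2% (3 h) and 24.2% (1.5 h) were shared, and of 1.5 h sites 17.4%. After 3 h, 7 of 42 members were called higher (10.51% of all genes) and 7 lower (9.04%). After 1.5 h, 4 of 38 were higher (4.41% of all genes) and 4 lower (9.54%). For 3 h against 1.5 h, 7 of 36 were higher (13.2% of all genes) and 3 lower (7.05%). Site scores differed at 0 member sites after 3 h.

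With no other site within 10 nt, member sites differed by 0.60 (3 h), 0.61 (1.5 h) and -0.0092 (3 h against 1.5 h), and genes by 0.26 (1.5 h) and -0.21 (3 h against 1.5 h). The start codon share differed by 14.5 (3 h) and 4.97 (1.5 h), both turned, and CDS by -12.8 (3 h), -6.38 (1.5 h, turned) and -6.43 (3 h against 1.5 h). CG differed by -0.281 (3 h), 4.92 (1.5 h, turned) and -5.20 (3 h against 1.5 h), CHH by 0.378 (1.5 h) and 10.9 (3 h against 1.5 h), and NGGG by -7.19 (3 h) and -7.75 (1.5 h). After 3 h, 7 of 44 members were called higher (12.9% of all genes) and 1 lower (10.9%). After 1.5 h, 4 of 41 were higher (7.04% of all genes) and 0 lower (7.62%). For 3 h against 1.5 h, 5 of 41 were higher (12.5% of all genes).

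With sites called in at least 2 libraries, member sites differed by 0 (1.5 h) and 0.71 (3 h against 1.5 h). The start codon share differed by -0.848 (3 h) and CDS by -6.58 (3 h) and 7.81 (1.5 h). CG differed by 1.40 (3 h against 1.5 h), and 25.0% of control sites were shared with 1.5 h (17.7% in other mRNAs). With sites called in all 3, member sites differed by 0.87 (3 h), 0.14 (1.5 h) and 0.74 (3 h against 1.5 h), genes by 0.16 (1.5 h), and the members' share by 0.65 (1.5 h) and -0.27 (3 h against 1.5 h). The start codon share then differed by 0.303 (3 h, turned), -19.1 (1.5 h) and 19.4 (3 h against 1.5 h), CDS by -7.27 (3 h) and -21.8 (3 h against 1.5 h), CG by -9.39 (1.5 h) and 7.27 (3 h against 1.5 h), CHH by 15.2 (3 h) and the median score by -8.0 (3 h) and -9.33 (1.5 h). Of control sites 10.0% (3 h) and 16.7% (1.5 h) were shared, and of 1.5 h sites 6.06%. In other mRNAs these shares were 13.9%, 16.2% and 16.2%.

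As a share of mRNA sites, member sites differed by 0.38 (3 h), 0.43 (1.5 h) and -0.047 (3 h against 1.5 h). By this share 13 of 44 members were higher after 1.5 h (16.7% of all genes). Without Sec31a and Ap2a2 member sites differed by 0.51 (3 h) and 0.16 (1.5 h). With codon regions of 50 nt the start codon share differed by 2.29 (3 h, turned) and -5.26 (1.5 h). The mean of log2(score + 1) differed by -0.11 where the median differed by 1.0 (3 h against 1.5 h). GENCODE exons kept every site and gene count within the spread.

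Leaving out a library gave 1 to 3 sites with separated scores (3 h; 3 without control replicate 1, 2 without OGD/R 3 h replicate 1), 1 to 2 (1.5 h; 2 without control replicate 2 or OGD/R 1.5 h replicate 1) and 0 to 2 (3 h against 1.5 h; 2 without OGD/R 3 h replicate 2). It gave 5 to 7 genes lower after 1.5 h (7 without OGD/R 1.5 h replicate 2) and 27.9% to 42.5% of control sites shared with 1.5 h. Fewer libraries make a call easier, and the shares of all genes and sites called in these repeats were not computed. No paired analysis was possible because the comparisons describe called sites and rest on no fitted model to which a block could be added, and nothing in the labels ties libraries of the same number.

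Depth limits every count, since a site enters only with enough coverage, and neither coverage nor level can be read from a score. The groups have no replicate beyond the library, and abundance of the mRNAs was not measured here.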

Other observations

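Sites outside the exons of members were few. Introns of members held 5 sites, in Sec31a and Sec24a, with 3 in OGD/R 3 h replicate 2, 2 in OGD/R 3 h replicate 3 and none in the other libraries. The strand opposite to members held 5 sites, at Rab10, Rab3ip and Ap1s3, with 4, 2 and 5 in the control libraries, 0, 1 and 0 after OGD/R 1.5 h and 0, 0 and 1 after OGD/R 3 h. Single sites of Copz1, a COPI subunit, and Ap1s1, a small subunit of the AP-1 adaptor, had high scores without a clear pattern for Copz1 and in a single group for Ap1s1. The Copz1 site at chr15:103296586 was called in 7 libraries with scores of 79 to 539, and the Ap1s1 site at chr5:137035781 was called in the OGD/R 1.5 h libraries only, with scores of 35, 48 and 110.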
